A study of Mus musculus with 6 samples.

Results

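The mitochondrial ribosomal protein genes encode the protein part of the mitoribosome, and 76 of them were described here among the 35275 gene identifiers of the deposited spinal cord counts. Members were protein-coding genes whose mouse symbol is Mrpl or Mrps followed by a number and whose counts summed to 30 or more over the 6 libraries. Of 82 identifiers with such a symbol, 5 were not protein-coding and 1, Mrpl53, was listed at 0 in every library. Mrpl33 was not analysed here. Bulk RNA-seq was done on whole spinal cord of 3 Sox2 cKO and 3 Ctrl C57BL/6 mice. Sox2 cKO mice were mGfap-Cre:Sox2fl/fl, in which Cre under the mouse Gfap promoter removes floxed Sox2 mainly from astrocytes. Ctrl mice are given as mGfap-Cre:Sox2+/+ in the sample labels, as carriers of either mGfap-Cre or Sox2fl/fl in the design text, and as Sox2fl/fl littermates in the study's methods. Their age is P90 in the labels and P80 in the protocol. By the study's methods each group held animals of both sexes. Libraries are named by the last digit of their column in the deposited counts, with Ctrl libraries 2, 4 and 6 and Sox2 cKO libraries 1, 3 and 5. The column names do not show which sample of a group each library is.

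Mitochondria translate the few mRNAs of their own genome on a ribosome of their own. Its rRNAs are transcribed inside the organelle, whereas its proteins are encoded in the nucleus, made on cytosolic ribosomes and imported. The large subunit holds the peptidyl transferase centre and the exit tunnel, and the small subunit reads the mRNA. Some of the proteins descend from bacterial ribosomal proteins and others are particular to mitochondria. All products of mitoribosomes in mammals are subunits of the respiratory chain and ATP synthase. In the nervous system neurons and glia alike depend on these complexes, and mouse Sox2 encodes a transcription factor of neural progenitors and astrocytes.

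Promoters of nuclear genes for mitochondrial proteins often carry sites for NRF1, for the ETS factor GABP and for YY1. The RefSeq promoter table (GRCm38.p6, the build of mm10) held windows of 300 bases, 250 before and 50 after a start, for 67 of the 76 genes, 73 windows in all. Letters were searched on both strands, and the letters of the motifs were allowed to overlap those of another. The ETS letters CCGGAAG stood in a window of 24 of the 67 genes (35.8%), against 17.5% of the 12090 tested genes with a window and 9.93% of all 27025 genes in the table. The NRF1 core GCATGCGC stood in 7 genes (10.4%, against 5.48% of tested genes). The YY1 letters AAGATGGCG stood in 8 (11.9%, against 3.08%). The SOX letters ACAAAG stood in 8 (11.9%, against 16.3%), and AACAATGG in 0 (against 0.736%). The windows below are those of the 5 members with the highest and the 5 with the lowest fold change that held any of these letters, read 5′ to 3′ on the strand of the gene with the motif in capitals.
Mrpl27 (ETS, chr11:94653724-94653753, plus strand, at -55 from the start): tgtccgcaagacCCGGAAGtagatctatcc
Mrpl34 (ETS, chr8:71464877-71464906, plus strand, at -37): gaactacagctcCCGGAAGgccccgcggca
Mrps21 (ETS in reverse complement, chr3:95871479-95871508, minus strand, 19 bases after the start): ccgtagcttccgCTTCCGGtccgcagagac
Mrpl10 (NRF1, chr11:97041437-97041466, plus strand, at -134): cccagctccacGCATGCGCatagcggccct
Mrpl1 (SOX ACAAAG, chr5:96209901-96209930, plus strand, at -202): acagagttttcaACAAAGccattccccacc
Mrps6, Mrpl41 and Mrps5 held none of the letters in their windows. The 24 genes with CCGGAAG had a median log2 fold change of 0.38 (14 called higher) and the 43 without it had 0.33 (23 called higher). Their median lengths were 1216 and 1424 bases. With an offset for gene length the medians were 0.21 and 0.12, and 5 and 7 genes were called higher. Of all genes tested 12.2% were called higher without the offset and 6.08% with it. The difference between these 2 groups was not tested.

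Libraries held between 21507911 and 28392184 counts, and the mean count of a member ran from 143 to 1791. Sox2 stood at 19.9, 14.8 and 29.5 CPM (counts scaled to library size with TMM factors) in Ctrl libraries 2, 4 and 6 and at 3.16, 2.69 and 2.98 CPM in Sox2 cKO libraries 1, 3 and 5. The groups did not overlap, and the log2 fold change was -2.86 ± 0.24 (SE, adjusted p = 0.00096, edgeR quasi-likelihood test with Benjamini-Hochberg adjustment over all 16137 genes tested). An exact permutation test of a single gene, two-sided, cannot give less than 0.1 with 3 libraries against 3, and gave 0.1 for Sox2.

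Without a correction for gene length, mitoribosomal transcripts were more abundant in Sox2 cKO spinal cord. In the edgeR test at an adjusted p of 0.05, 40 of the 76 genes rose and 0 fell, where 12.2% of all genes tested rose and 12.4% fell. The log2 fold change was above 0 for 75 of the 76, with a median of 0.35 (a fold of 1.27) against 0.018 over all genes tested. For 0 called lower, no member with an unadjusted p under 0.05 lay below 0, and 58 members had such a p. Of all 16137 genes tested, 6391 had such a p. DESeq2 called 41 higher (12.9% of all genes) and 0 lower, with the 40 of edgeR among them. The ranges of the groups lay apart, with all 3 Sox2 cKO libraries above all 3 Ctrl libraries, for 58 genes, against 22.6% of all genes, and lay apart the other way for 0, against 22.1%. None of these values is corrected for gene length, and most members are short genes. In the shortest of 5 length classes, which held 44 of the 76, 30.4% of all genes rose. With an offset for length edgeR called 14 of the 76 higher, against 6.08% of all genes, and 1 lower, against 6.99%. The median log2 fold change of the members was then 0.14. In whole tissue, a change in the share of a cell type and a change in RNA per cell cannot be told apart.

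Summed over the 76 genes, the level was 2101 CPM in Ctrl library 2, 1818 in library 4 and 1871 in library 6. In Sox2 cKO it was 2581 CPM in library 1, 2397 in library 3 and 2410 in library 5. The group means were 1930 ± 151 and 2463 ± 103 CPM (SD, n = 3 each), a ratio of 1.28, and the lowest Sox2 cKO library lay above the highest Ctrl library. Ctrl library 2 lay nearest to the Sox2 cKO libraries. Relative to each gene's mean over the 6 libraries, the median log2 deviation of the 76 genes was -0.044 in Ctrl library 2, -0.26 in library 4 and -0.23 in library 6. It was 0.25 in Sox2 cKO library 1, 0.13 in library 3 and 0.15 in library 5. In library 1, 72 of 76 genes stood above their own mean, and in Ctrl library 4 only 3 did.

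**Figure D1:**
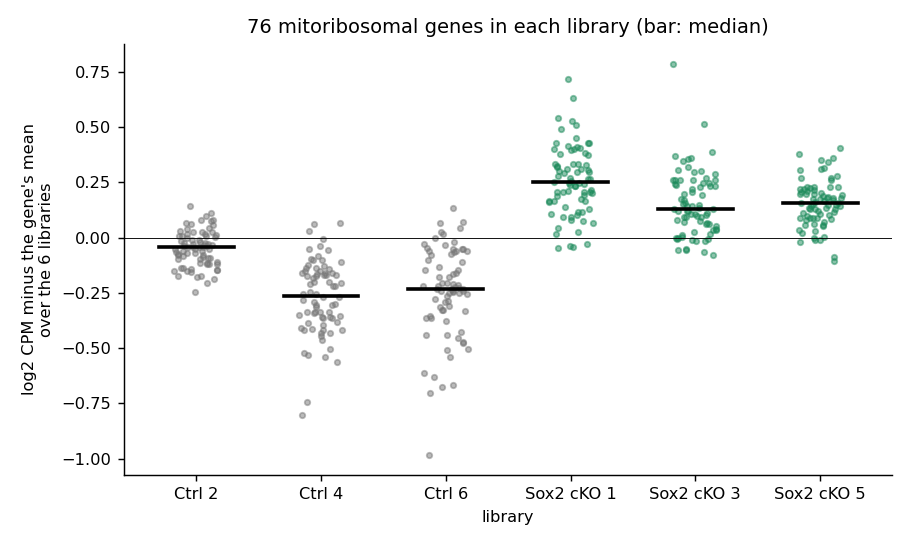
Each point is 1 of the 76 genes, and the vertical axis is its log2 CPM minus its mean over the 6 libraries, with libraries along the horizontal axis and a black bar at the median of each. The medians of the Ctrl libraries lie at -0.044, -0.26 and -0.23 and those of the Sox2 cKO libraries at 0.25, 0.13 and 0.15.

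The 5 largest rises were those of Mrps6, Mrpl41, Mrpl34, Mrps21 and Mrpl27. Mrps6 (chr16:92058270-92112227) encodes the small subunit protein related to bacterial S6. It stood at 13.5, 8.31 and 7.33 CPM in Ctrl libraries 2, 4 and 6 and at 23.9, 25.0 and 18.9 CPM in Sox2 cKO libraries 1, 3 and 5. The log2 fold change was 1.21 ± 0.21 (SE, adjusted p = 0.012 by edgeR). The groups did not overlap, and library 2 was again the highest Ctrl library. Mrps6 shares 19.9% of its exonic bases with Slc5a3, an osmolyte transporter gene on the same strand, and Gm49711. Slc5a3 itself had a log2 fold change of -0.51 ± 0.13 (adjusted p = 0.021, edgeR), the other way from Mrps6. With an offset for gene length Slc5a3 had -0.12 (adjusted p = 0.23, edgeR). The part of shared reads in either value was not tested.

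Mrpl41 (chr2:24974117-24975098), a large subunit protein without a bacterial counterpart, stood at 39.1, 24.0 and 25.1 CPM in Ctrl libraries 2, 4 and 6 and at 62.3, 57.4 and 49.7 CPM in Sox2 cKO libraries 1, 3 and 5 (log2 fold change 0.94 ± 0.17, adjusted p = 0.013, edgeR). Mrpl34 (chr8:71464959-71465747), the counterpart of bacterial L34, stood at 20.3, 14.9 and 13.6 CPM in Ctrl and at 30.3, 28.2 and 28.5 CPM in Sox2 cKO, in the same order of libraries (log2 fold change 0.83 ± 0.14, adjusted p = 0.012, edgeR). Neither group overlapped the other for these genes. Mrps21 (chr3:95862634-95871519), the counterpart of bacterial S21 in the small subunit, stood at 41.2, 29.8 and 31.7 CPM in Ctrl and at 59.3, 56.1 and 56.6 CPM in Sox2 cKO (log2 fold change 0.74 ± 0.12, adjusted p = 0.012, edgeR). Mrpl27 (chr11:94653767-94660089), whose bacterial counterpart reaches into the peptidyl transferase centre, stood at 20.7, 15.2 and 15.4 CPM in Ctrl and at 31.8, 28.2 and 25.0 CPM in Sox2 cKO (log2 fold change 0.73 ± 0.14, adjusted p = 0.013, edgeR). For these genes too every Sox2 cKO library lay above every Ctrl library.

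The 5 genes at the other end overlapped between the groups. Mrpl19 (chr6:81957851-81965958), the counterpart of bacterial L19, stood at 25.7, 21.6 and 23.5 CPM in Ctrl libraries 2, 4 and 6 and at 24.3, 23.1 and 21.6 CPM in Sox2 cKO libraries 1, 3 and 5. Its log2 fold change of -0.035 ± 0.10 was the only one below 0 in edgeR (adjusted p = 0.82). Mrps5 (chr2:127587222-127606829), a protein at the mRNA entry of the small subunit, stood at 54.2, 56.5 and 58.5 CPM in Ctrl and at 57.4, 56.5 and 57.6 CPM in Sox2 cKO, a log2 fold change of 0.019 ± 0.072. Mrpl1 (chr5:96209493-96266727), of the L1 stalk, stood at 15.8, 16.8 and 16.1 CPM in Ctrl and at 16.9, 15.8 and 17.1 CPM in Sox2 cKO, a log2 fold change of 0.032 ± 0.095. The ranges of the groups overlapped for each of them. Mrpl10 (chr11:97041560-97049213), which anchors the factor-binding stalk, had 0.034 ± 0.10, and Mrpl15 (chr1:4773206-4785739), a large subunit protein, had 0.049 ± 0.11. Adjusted p values of Mrps5, Mrpl1, Mrpl10 and Mrpl15 lay between 0.76 and 0.86 (edgeR).

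**Figure D2:**
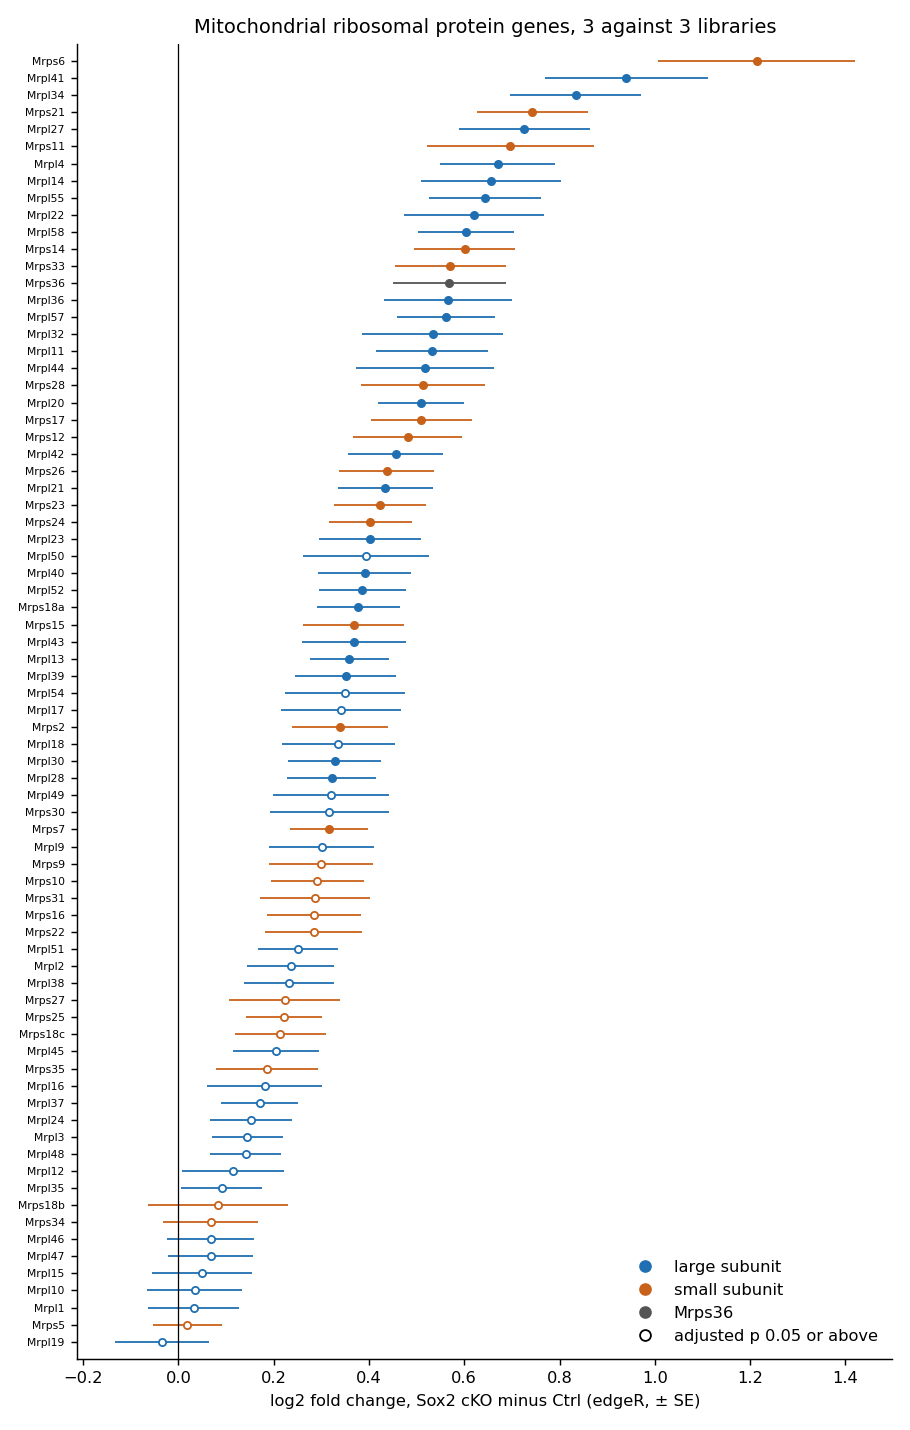
Log2 fold change of each of the 76 genes, Sox2 cKO minus Ctrl, with its standard error from the edgeR fit, ordered from the highest to the lowest and coloured by subunit. Filled points are the 40 genes with an adjusted p below 0.05, and Mrpl19 is the only gene whose point lies below 0.

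Both subunits held genes that rose, where 12.2% of all genes tested rose without the length correction and 6.08% with it. Of 49 large subunit genes (the Mrpl genes with Mrps30 and Mrps18a), 25 rose, and the log2 fold change had a median of 0.35 and a range from -0.035 to 0.94. Of 26 small subunit genes 14 rose, with a median of 0.33 and a range from 0.019 to 1.21. Their summed levels were 1292 ± 106 and 1634 ± 62.2 CPM for the large subunit in Ctrl and Sox2 cKO, and 619 ± 41.8 and 801 ± 40.0 CPM for the small subunit (SD, n = 3). The remaining gene, Mrps36, is now placed in the oxoglutarate dehydrogenase complex and rose by a log2 fold change of 0.57 ± 0.12 (adjusted p = 0.014, edgeR). With the length correction 7 large and 7 small subunit genes were called higher and Mrps36 was not (0.19, adjusted p = 0.19, edgeR).

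Within the large subunit, the genes of the stalks, which carry the translation factors and move the tRNA, included 1 that rose among 4. This was Mrpl11 (log2 fold change 0.53 ± 0.12, adjusted p = 0.016, edgeR), while Mrpl1, Mrpl10 and Mrpl12 had values from 0.032 to 0.12. Around the peptidyl transferase centre 2 of 5 rose, with values from 0.15 for Mrpl3 to 0.73 for Mrpl27. At the exit tunnel and the contact with the inner membrane 2 of 6 rose, with values from 0.068 for Mrpl47 to 0.62 for Mrpl22. In the central protuberance, with the rescue factor Mrpl58, 3 of 8 rose, from 0.068 for Mrpl46 to 0.64 for Mrpl55. In every one of these lists all log2 fold changes were above 0. With the length correction 1 of 4, 1 of 5, 0 of 6 and 1 of 8 were called higher, and 2, 3, 5 and 6 lay above 0. The shares of all genes tested that rose were 12.2% without the correction and 6.08% with it.

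Within the small subunit, 2 of 3 genes of decoding and mRNA entry rose, with Mrps12, the counterpart of the bacterial decoding protein S12, at 0.48 ± 0.12 (adjusted p = 0.019, edgeR) and Mrps5 at 0.019. Of 7 genes of the head 3 rose (values from 0.19 to 0.60), and of 5 genes of the body 0 rose (values from 0.068 to 0.28, of which 3 had an unadjusted p under 0.05, and DESeq2 called 0). The 3 paralogs of bacterial S18 had different values. Mrps18a, placed in the large subunit, rose (0.38 ± 0.088, adjusted p = 0.018, edgeR), whereas Mrps18b (0.084 ± 0.15) and Mrps18c (0.21 ± 0.096) did not pass the test. With the length correction 0 of 3, 2 of 7, 1 of 5 and 0 of 3 genes of these lists were called higher. Mrps18b (-0.24) and Mrps18c (-0.16) then lay below 0. All genes tested had 12.2% called higher without the correction and 6.08% with it. The differences between paralogs were not tested.

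By descent, 26 of the 46 genes listed with a bacterial homolog rose (median log2 fold change 0.34). Of the 29 listed as particular to mitochondria 13 rose (median 0.35). With the length correction 9 of the 46 and 5 of the 29 were called higher, with medians of 0.13 and 0.14. Of all genes tested 12.2% rose without the correction and 6.08% with it. A further 5 mitoribosomal proteins bear other names. Of these Chchd1 rose from 24.6, 19.4 and 22.3 CPM in Ctrl libraries 2, 4 and 6 to 33.3, 31.6 and 31.5 CPM in Sox2 cKO libraries 1, 3 and 5 (log2 fold change 0.54 ± 0.10, adjusted p = 0.013, edgeR). Aurkaip1 rose by 0.41 ± 0.091 (adjusted p = 0.016, edgeR). None of the 5 was called with the length correction (0 of 5 by edgeR), and Chchd1 had 0.15 (adjusted p = 0.21) and Aurkaip1 0.089 (adjusted p = 0.37, both by edgeR). Dap3, Ptcd3 and Gadd45gip1 had values of 0.084, -0.003 and -0.15 and overlapped between the groups.

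Fold change moved with gene length over all genes, and mitoribosomal genes are short. Their median length, as recovered from the deposited FPKM values, was 1408 bases against 3060 over all genes tested, and 44 of the 76 fell in the shortest of 5 length classes of equal size (66 to 1708 bases). In that class 30.4% of all genes rose and 1.73% fell, with a median log2 fold change of 0.30. In the longest class (4869 bases and more) 1.73% rose and 36.0% fell, with a median of -0.25. The members in the shortest class had 29 of 44 called higher and a median of 0.40, those in the next 7 of 13 and 0.34, and those in the middle class 2 of 6 and 0.27. In the longer classes they had 1 of 10 and 0.14, and then 1 of 3 and 0.22, where the medians of all genes were -0.066 and -0.25. In each class the median of the members was above that of all genes. Of 22 members shorter than 1000 bases 19 rose, and of 15 members of 3000 bases or more 2 rose. Across the 76 genes, which share their libraries and are not independent, Spearman's rho of fold change and length was -0.53, and across all genes tested it was -0.48. The part of RNA integrity in this trend was not tested.

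With an offset for length in each library, fewer members were called. The length-corrected edgeR fit called 14 of 76 higher, against 6.08% of all genes, and 1 lower, against 6.99%. The median log2 fold change of the members was 0.14 (all genes 0.001), and 61 of 76 lay above 0. Across the 76 genes Spearman's rho of the corrected fold change and length was 0.26, so a trend with length stayed, in the other direction. In the shortest class 5 of 44 members were called higher, against 7.1% of all genes there. The sign of 15 genes turned from above to below 0, to values from -0.25 to -0.012, and that of Mrpl19 turned to 0.10. Both fits called 12 genes, which are given here after their values were seen. These were Mrpl4, Mrpl11, Mrpl13, Mrpl34, Mrpl41, Mrpl57, Mrpl58, Mrps6, Mrps14, Mrps17, Mrps21 and Mrps26. In the length-corrected fit Mrps6 had the highest value (0.86 ± 0.18, adjusted p = 0.022, edgeR), followed by Mrpl41 (0.57, adjusted p = 0.027). Mrpl58, the peptidyl-tRNA hydrolase that frees stalled mitoribosomes, had 0.60 without and 0.52 with the correction, and Mrps14, of the small subunit head, had 0.60 and 0.56. Mrpl13, the longest of the 12 at 6008 bases, stood at 55.9, 47.2 and 51.6 CPM in Ctrl libraries 2, 4 and 6 and at 67.3, 64.7 and 66.4 CPM in Sox2 cKO libraries 1, 3 and 5, with 0.36 without and 0.57 with the correction. Mrps10 (4090 bases) and Mrps25 (6073 bases) were called higher with the correction alone. Mrpl46, of the central protuberance, was called lower with it (-0.25, adjusted p = 0.046, edgeR) and had 0.068 ± 0.091 without it.

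**Figure D3:**
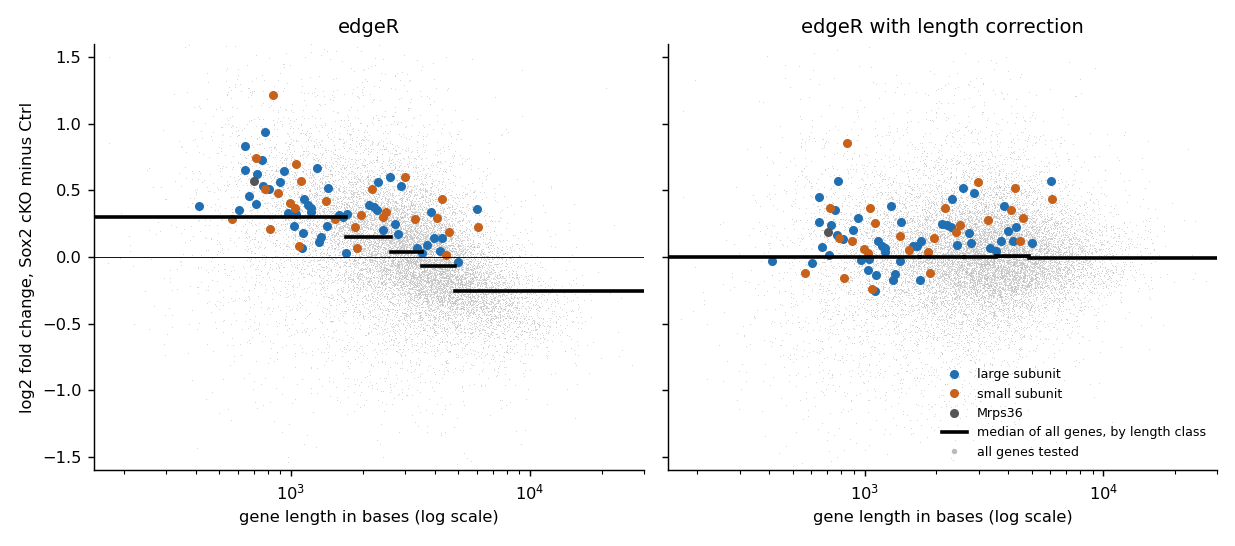
Log2 fold change, Sox2 cKO minus Ctrl, against gene length on a log scale, for all genes tested (grey) and the 76 genes (coloured by subunit), without (left) and with (right) the length correction. Black bars mark the median of all genes in each of 5 length classes, from 0.30 in the shortest to -0.25 in the longest on the left and between -0.005 and 0.005 on the right. Both axes are cut, which leaves out grey points only.

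The number of calls rested on single libraries. Without Sox2 cKO library 1 edgeR called 0 members higher (0.0182% of all genes, lowest adjusted p of a member 0.066, 46 members with an unadjusted p under 0.05). Without Ctrl library 4 it also called 0 (0.0794% of all genes, lowest adjusted p 0.065, 41 with an unadjusted p under 0.05). The share of all genes at that unadjusted p was not counted without either library. DESeq2 called 28 members higher without library 1, against 7.23% of all genes, and 25 without library 4, against 6.67%. All of these 28 and all of these 25 were among the 40. Without Ctrl library 6 edgeR called 18 (3.64% of all genes), and without Sox2 cKO library 3 it called 21 (4.27%). Without Sox2 cKO library 5 it called 30 (8.13%), and without Ctrl library 2 it called 54 (18.3%). The median log2 fold change ran from 0.30 to 0.42 over these fits, and 74 or 75 members lay above 0 in each. The median deviation of all genes in the shortest length class was also highest in library 1 (0.24) and lowest in Ctrl library 4 (-0.22), with -0.034 in Ctrl library 2, the order of libraries seen for the members. The part of length and of single libraries in the rise was not tested further.

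Per length, mitoribosomal transcripts differed widely in level. The mean FPKM in Ctrl ran from 3.16 for Mrps35 to 63.8 for Mrpl52, with a median of 13.3, and 49 of 76 genes stood at 10 or more. Mrpl52 (63.8 ± 3.30 FPKM), Mrpl42 (58.4 ± 8.74), Mrps21 (46.5 ± 9.48), Mrpl20 (44.2 ± 4.82) and Mrpl30 (43.5 ± 5.01) were the highest in Ctrl (SD, n = 3), and neighbours in this order overlapped in range. In Sox2 cKO Mrpl52 (89.4 ± 9.41), Mrpl42 (85.6 ± 2.69), Mrps21 (83.2 ± 4.26) and Mrpl41 (75.4 ± 10.1 FPKM) were the highest, and Mrpl41 stood at 36.8 ± 11.5 in Ctrl. Mrps35 (3.16 ± 0.11), Mrpl1 (4.41 ± 0.13) and Mrpl19 (4.56 ± 0.49) were the lowest in Ctrl. Across the 76 genes, Spearman's rho of fold change with the mean Ctrl FPKM was 0.24 and with GC content 0.21.

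In the annotation, 45 of the 76 genes share no exonic base with another gene. Of these 27 rose (median log2 fold change 0.38), and of the 31 with a shared base 13 rose (median 0.32). The median length was 1285 bases for the 45 and 1590 bases for the 31. With the length correction 9 of the 45 and 5 of the 31 were called higher, with medians of 0.16 and 0.12. All genes tested had 12.2% called higher without the correction and 6.08% with it. Mrps34 shares 77.8% of its exonic bases with Nme3 and Mapk8ip3, and Mrps25 shares 69.8% with Nr2c2. A strand setting for the counting is not given in the sources used here, so these values are uncertain. Only Mrps11 and Mrpl46 lie within 100000 bases of each other. They are read in opposite directions on chromosome 7 from starts 412 bases apart and overlap at their 5′ ends. Mrps11 (chr7:78783119-78792989, plus strand) stood at 12.9, 9.47 and 7.77 CPM in Ctrl libraries 2, 4 and 6 and at 18.2, 16.2 and 14.5 CPM in Sox2 cKO libraries 1, 3 and 5 (log2 fold change 0.70 ± 0.17, adjusted p = 0.021, edgeR). Mrpl46 (chr7:78775236-78783531, minus strand) stood at 30.5, 26.0 and 28.2 CPM in Ctrl and at 31.0, 28.9 and 28.9 CPM in Sox2 cKO, so that its groups overlapped. Their lengths are close, at 1056 and 1111 bases, and with the length correction Mrps11 had 0.37 (adjusted p = 0.11, edgeR). The difference between them was not tested.

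Of the called genes of mitoribosome assembly and translation factors most rose, where 12.2% of all genes tested rose and 12.4% fell (edgeR). Among 22 assembly genes 5 rose and 1 fell (median log2 fold change 0.26). The highest was Mterf3, of large subunit biogenesis, at 0.80 ± 0.14 (adjusted p = 0.012, edgeR), and Mettl17, of the small subunit, had 0.75 ± 0.16 (adjusted p = 0.014). Mtg1, Ngrn and Rbfa rose by 0.54, 0.52 and 0.33, and the inner membrane protein Letm1 fell by 0.32 on the log2 scale (adjusted p = 0.026, edgeR). Among 11 translation factors 3 rose and 0 fell (median 0.20). These were Guf1, a translation elongation GTPase (0.53 ± 0.12), the elongation factor Tsfm (0.48 ± 0.13) and the initiation factor Mtif2 (0.27 ± 0.085), and the lowest value was -0.11 for Gfm2, of ribosome recycling. With the length correction Guf1, Mterf3, Mettl17, Mtg1 and Ngrn were still called higher, whereas Tsfm, Mtif2, Rbfa and Letm1 were not called. Without Sox2 cKO library 1, and also without Ctrl library 4, edgeR called none of the 72 named genes that were checked beside Sox2.

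Among 17 mitochondrial aminoacyl-tRNA synthetases 3 rose and 1 fell (median log2 fold change -0.029), where 12.2% of all genes rose and 12.4% fell. Yars2 (0.52 ± 0.12), Rars2 (0.48 ± 0.11) and Hars2 (0.30 ± 0.096) rose. Of these Yars2 alone was called with the length correction, and Rars2 (0.30, adjusted p = 0.060) and Hars2 (0.29, adjusted p = 0.054, both by edgeR) lost the call. Lars2 stood at 879, 1706 and 1856 CPM in Ctrl libraries 2, 4 and 6 and at 366, 739 and 862 CPM in Sox2 cKO libraries 1, 3 and 5 (log2 fold change -1.18 ± 0.32, adjusted p = 0.027, edgeR), while the next highest synthetase, Iars2, reached 61.2 CPM at most. Its lowest Ctrl library lay close to its highest Sox2 cKO library. Among 13 genes of mitochondrial transcription and RNA handling 2 rose, against 12.2% of all genes. These were Slirp, which binds mitochondrial mRNAs, at 7.93, 4.61 and 5.21 CPM in Ctrl against 12.5, 12.3 and 11.1 CPM in Sox2 cKO (log2 fold change 1.02 ± 0.19, adjusted p = 0.013, edgeR), and the RNA-degrading Pnpt1 (0.47 ± 0.13). Taco1, an activator of cytochrome oxidase translation, had the lowest value (-0.26 ± 0.12, adjusted p = 0.15, edgeR), and with the length correction it was called lower at -0.53 (adjusted p = 0.032, edgeR). Slirp and Pnpt1 were still called higher with the correction.

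Of 11 regulators 0 rose and 2 fell by edgeR, 0 rose and 4 fell by DESeq2, and 5 had an unadjusted p under 0.05 by edgeR. Of all genes 12.4% fell by edgeR and 15.2% by DESeq2, and 6391 of 16137 had such an unadjusted p by edgeR. Yy1 fell by 0.39 on the log2 scale (adjusted p = 0.024, edgeR) and the coactivator Ppargc1b fell by 0.65 (adjusted p = 0.040, edgeR), which was not called with the length correction. DESeq2 alone called Ppargc1a (adjusted p = 0.032) and Gabpb2 (adjusted p = 0.045) lower. In edgeR they had -0.30 and -0.29, with every Sox2 cKO library below every Ctrl library, and -0.063 and 0.038 with the length correction. Nrf1 (-0.010), Gabpa (0.080), Gabpb1 (0.073) and Esrra (0.000) had values near 0, and Myc had the highest value (0.51 ± 0.20, adjusted p = 0.089, edgeR).

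The mRNAs of the mitochondrial genome, which the mitoribosome translates, were counted in the same libraries. Of 12 tested 0 rose and 2 fell (median log2 fold change -0.072), and with the length correction 0 rose and 7 fell (median -0.44). Of all genes 12.4% fell without the correction and 6.99% with it. Without the correction 4 had an unadjusted p under 0.05 by edgeR, and DESeq2 called 0 higher and 2 lower. The summed level was 60550 ± 5013 CPM in Ctrl and 55680 ± 3033 CPM in Sox2 cKO (SD, n = 3), and the ranges overlapped. The subunits of complex I mt-Nd5 (-0.62 ± 0.13, adjusted p = 0.015) and mt-Nd6 (-0.49 ± 0.14, adjusted p = 0.030, both by edgeR) fell, and they overlap on opposite strands. mt-Co1, of cytochrome oxidase, had the highest value (0.11 ± 0.11). Some mitochondrial genes have near-identical nuclear copies, and these libraries were made from poly(A) RNA, so levels across these genes are uncertain.

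**Figure D4:**
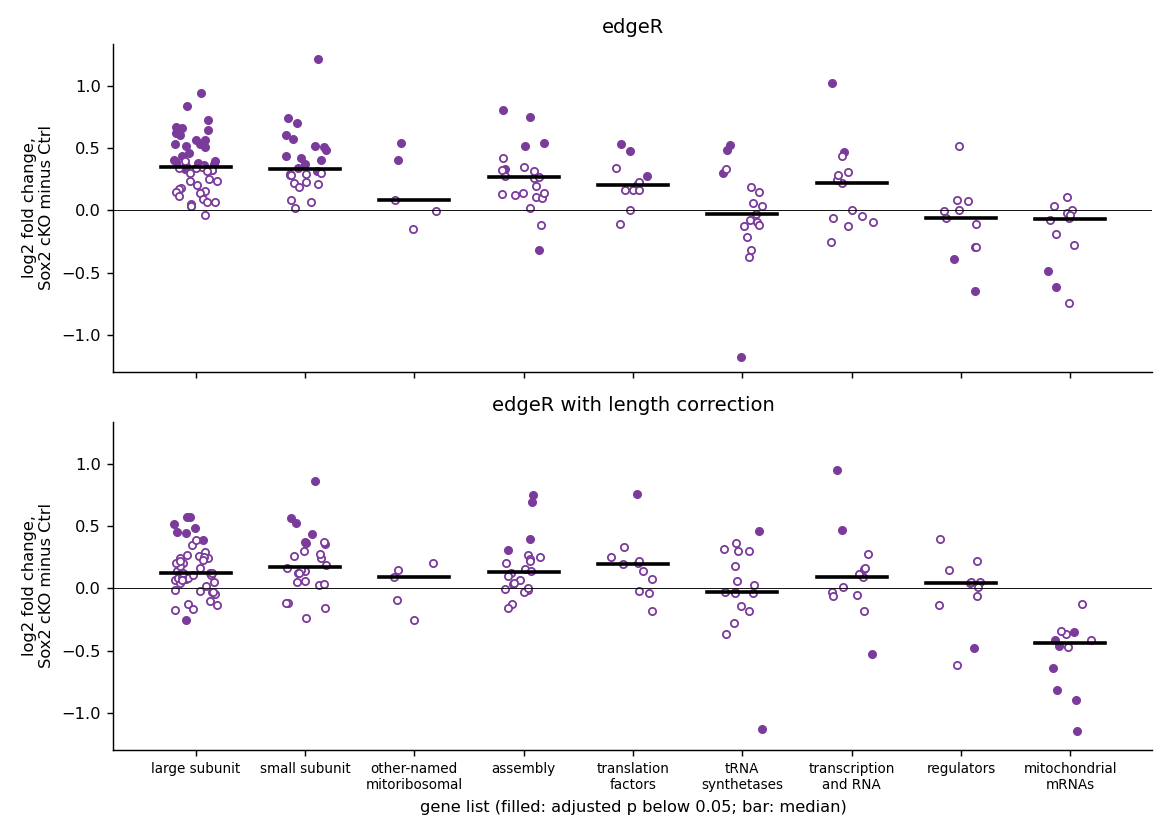
Log2 fold change, Sox2 cKO minus Ctrl, of the large and small subunit genes and of 7 related lists, without (top) and with (bottom) the length correction. Each point is a gene, filled where the adjusted p is below 0.05, and bars are medians, which run on top from 0.35 for the large subunit to -0.072 for the mitochondrial mRNAs.

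Cytosolic ribosomal protein genes, which are short too (median 930 bases), had 26 of 79 called higher and 0 lower, and their median log2 fold change was 0.19. With the length correction 1 was called higher and 9 lower, with a median of -0.11, beside 14 higher and 1 lower of the 76 mitoribosomal genes. Of all genes 12.2% rose and 12.4% fell without the correction, and 6.08% rose and 6.99% fell with it. Many cytosolic ribosomal protein genes have processed copies in the genome, and the difference between the lists was not tested.

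The tissue expressed its defining markers, with summed levels of 27750 ± 2015 CPM for 5 oligodendrocyte genes and 4959 ± 463 CPM for 6 neuronal genes in Ctrl (SD, n = 3). The 8 astrocyte markers ranged from 7405 to 9581 CPM in Ctrl and from 5304 to 5520 CPM in Sox2 cKO, and 5 of 8 fell. The neuronal markers ranged from 4678 to 5493 CPM in Ctrl and from 5617 to 5798 CPM in Sox2 cKO, and 1 of 6 rose. Snap25 was the largest part of that sum, with means of 2119 CPM in Ctrl and 2706 CPM in Sox2 cKO (adjusted p = 0.062, edgeR). Of the 6 log2 fold changes 4 lay above 0, and those of Syt1 (-0.033) and Tubb3 (-0.063) lay below. The 3 markers of oligodendrocyte precursors, which are long genes (median 6570 bases), fell (130 to 150 CPM against 77.8 to 111 CPM). The 3 ependymal markers ranged from 43.5 to 52.1 CPM in Ctrl and from 37.7 to 39.1 CPM in Sox2 cKO, and 1 fell. With the length correction 2 of 8 astrocyte, 1 of 3 precursor and 1 of 3 ependymal markers were called lower. Among the 6 neuronal markers the correction called 1 higher, a different gene from the one called without it. Of all genes tested 12.2% rose and 12.4% fell without the correction, and 6.08% rose and 6.99% fell with it. Oligodendrocyte markers overlapped between the groups (25550 to 29510 against 26870 to 28240 CPM), as did microglial (172 to 213 against 136 to 183), endothelial (96.0 to 132 against 98.2 to 149), motor neuron (147 to 195 against 160 to 179), Schwann cell (22.6 to 64.2 against 44.0 to 65.8) and red blood cell markers (53.5 to 155 against 72.3 to 93.7 CPM). Of these lists edgeR called 0 genes, with an unadjusted p under 0.05 for 3 microglial, 1 oligodendrocyte and 1 endothelial gene, and DESeq2 called 2 microglial and 2 oligodendrocyte genes lower. With the length correction edgeR called 1 oligodendrocyte gene lower. The 4 skeletal muscle markers, from a tissue rich in mitochondria, summed to 9.73, 4.99 and 4.34 CPM in Ctrl libraries 2, 4 and 6 and to 20.98, 3.75 and 51.5 CPM in Sox2 cKO libraries 1, 3 and 5. Of these 4 edgeR called 1 higher, Mylpf, and 0 with the length correction, and the ranges of the groups overlapped for each. The brown fat marker Ucp1 stood at 0.239 CPM or less in every library, and Cidea at 3.86 to 6.80 CPM. The part of these cell types in the mitoribosomal values was not tested.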

How the data were processed

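Poly(A) RNA of whole spinal cord was sequenced from 3 Sox2 cKO and 3 Ctrl mice. The minimum RNA integrity number is given as 6.8 in the sample records, and the study's methods give a higher one. No value per library was used here. The authors deposited counts per gene, not normalized, made with STAR 2.5 on mm10 and HTSeq 0.6.1 per the submitters' processing notes, and FPKM values made from these counts. The annotation release and the strand setting are not given in the sources used here. Columns were grouped by the mouse numbers that the study gives, and the group means it lists matched for 1999 of 1999 genes (relative tolerance 0.0001). No column was left over (0 further per-sample columns). Names came from GENCODE M21 (34490 of 35275 identifiers matched), and lengths from the ratio of counts and FPKM. Depth was 21507911 to 28392184 counts per library.

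Counts were tested with edgeR 4.0.16 (filterByExpr, TMM, quasi-likelihood, no covariates) in R 4.3.3, with Benjamini-Hochberg adjustment at 0.05. Alternatives were DESeq2 1.42.0, upper quartile scaling, no count filter or at least 10 counts in every library, limma 3.58.1 on log2(FPKM + 1) and log2(FPKM + 0.1) for genes with a mean FPKM of 0.5 or more, lowess offsets (span 0.3) on length or GC content, and leaving out each library. The fits were tested on simulated data. Members, lists and rules were chosen with earlier results of these data known. Genes named are the 5 highest and 5 lowest members with a mean count of 50 or more, the extremes of each list and called genes of related lists. Others, such as Mrps11, Mrps36 and the genes given by FPKM, were chosen after their values were seen. P-values measure the spread between these libraries, which the study's methods place in separate mice and the labels do not.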

Additional observations from a re-analysis of the deposited data

How the results depend on the processing

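The number of mitoribosomal genes called higher was 40 with edgeR and lay between 41 and 57 under DESeq2, upper quartile scaling, both other count filters, both limma fits and the GC correction, each of which kept at least 39 of the 40. Of all genes 12.2% were called higher in edgeR and 8.62% to 18.1% in those alternatives. The length correction gave 14 and a median log2 fold change of 0.14, with 1 gene called lower, Mrpl46 at -0.25, and turned the sign of 15 members from above to below 0, among them the called Mrpl28 (-0.012), Mrpl30 (-0.021) and Mrpl52 (-0.029) and the uncalled Mrps18c (-0.16), Mrpl12 (-0.17), Mrpl10 (-0.18) and Mrps34 (-0.12). Members above 0 went from 75 to 61. The offset removes the trend with length that all genes share, and across the members Spearman's rho of fold change and length went from -0.53 to 0.26. Leaving out each library in turn gave 0 to 54 genes called higher, 0 called lower, and a median between 0.30 and 0.42. Of all genes 0.0182% to 18.3% were called higher in these fits. Chosen after seeing the data, DESeq2 without each library in turn gave 25 to 50 called higher (6.67% to 16.5% of all genes), with 25 without Ctrl library 4. The cause of these differences between libraries was not tested. Sox2 stayed past the threshold in all 20 alternatives, with -3.07 to -2.56 when a library was left out. Of 72 other named genes that were checked, 46 were called by edgeR, and these 46 lost the call without Ctrl library 4 and without Sox2 cKO library 1. In limma on log2(FPKM + 0.1) the median of all genes was 0.11, against 0.018 in edgeR. The split of all genes called was 2670 higher to 915 lower in limma on log2(FPKM + 1) and 2313 to 1652 with upper quartile scaling, against 1962 to 2008 in edgeR. Without Sox2 cKO library 1 edgeR called 3 genes higher over the whole table. No paired analysis was possible because the columns of the tables carry no replicate numbers.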
